A study of Mus musculus with 6 samples.

Results

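The collagen genes were taken as all genes of the count table whose symbol has the form Col, a type number, a and a chain number. There were 44 of them among 24421 genes, and each stands for 1 collagen chain. They comprised 8 basement membrane collagens (the Col4 genes, Col15a1 and Col18a1), 11 fibrillar collagens and 25 others. RNA had been sequenced from brain-derived mouse endothelial cells, cultured in serum-containing medium, co-cultured with a vascular niche and isolated by fluorescence-activated sorting. In 3 libraries the cells were labelled Fli-1 knockout and in 3 WT, and the co-culture, begun once deletion of Fli-1 had been induced, lasted 6 days. The labels give the same 4-OHT treatment for both groups. They do not name the Cre or its driver, the cells of the niche, the age of the mice or the part of the gene deleted, nor do they say that replicates were grown separately or came from different mice. The p-values therefore measure the spread between these libraries, which may be technical.

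Collagens are secreted proteins whose chains carry long runs of the repeat Gly-X-Y and wind around each other into a stiff rope. Type IV collagen forms a sheet-like network that is the scaffold of the basement membrane, the layer on which endothelial cells rest, while types XV and XVIII carry glycosaminoglycan chains and link that layer to the matrix beneath. Fibrillar collagens such as types I, III and V pack side by side into the cable-like fibrils of connective tissue and are made above all by fibroblasts and other stromal cells. The remaining types decorate fibrils, form beaded filaments or networks of short chains, or span the cell membrane.

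The promoters of Col4a1 and Col4a2 are shown first because these most abundant members start next to each other on opposite strands, and their windows share 78 bases. The sequences are RefSeq windows on GRCm38.p6, from 250 bases before to 50 bases after the start, 5′ to 3′ on the gene's own strand, and capitals mark the shared part. The Col4a1 window is chr8:11312777-11313076 on the minus strand, and the Col4a2 window is chr8:11312555-11312854 on the plus strand.
Col4a1: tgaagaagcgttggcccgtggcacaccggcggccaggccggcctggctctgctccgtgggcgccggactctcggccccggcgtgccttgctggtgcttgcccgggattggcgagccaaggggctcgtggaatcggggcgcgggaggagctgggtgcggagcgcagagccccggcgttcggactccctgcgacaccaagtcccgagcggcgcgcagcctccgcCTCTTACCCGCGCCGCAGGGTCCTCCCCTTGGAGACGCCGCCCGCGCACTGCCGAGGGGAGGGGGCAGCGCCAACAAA
Col4a2: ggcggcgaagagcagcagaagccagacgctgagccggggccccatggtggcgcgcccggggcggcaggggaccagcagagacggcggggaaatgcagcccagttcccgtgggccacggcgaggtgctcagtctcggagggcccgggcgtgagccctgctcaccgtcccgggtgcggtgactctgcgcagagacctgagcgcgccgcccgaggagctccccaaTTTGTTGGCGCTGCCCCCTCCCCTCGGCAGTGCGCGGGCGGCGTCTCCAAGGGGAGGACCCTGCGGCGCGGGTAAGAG
The next windows belong to Col18a1 (chr10:77166481-77166780, minus strand, the upstream of 2 starts in the table) and to Col3a1 (chr1:45311288-45311587, plus strand). Col18a1 is a basement membrane collagen that was higher in the libraries labelled knockout. Col3a1 is a fibrillar collagen that was lower in the paired test described below, though not in pair 3, and its call was lost without pair 2. Capitals mark GGAA, the core of the sites that ETS factors such as Fli1 bind, or its reverse complement TTCC.
Col18a1: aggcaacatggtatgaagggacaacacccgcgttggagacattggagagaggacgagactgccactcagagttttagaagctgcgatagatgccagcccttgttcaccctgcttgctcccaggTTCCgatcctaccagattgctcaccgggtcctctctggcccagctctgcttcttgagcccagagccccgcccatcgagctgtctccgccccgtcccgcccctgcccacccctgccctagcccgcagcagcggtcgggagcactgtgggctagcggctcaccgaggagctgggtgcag
Col3a1: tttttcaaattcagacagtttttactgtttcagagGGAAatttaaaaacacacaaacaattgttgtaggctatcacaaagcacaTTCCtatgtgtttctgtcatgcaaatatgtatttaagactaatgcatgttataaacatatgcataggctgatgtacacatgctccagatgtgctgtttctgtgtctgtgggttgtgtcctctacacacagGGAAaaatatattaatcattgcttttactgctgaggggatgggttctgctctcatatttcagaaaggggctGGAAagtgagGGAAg
GGAA was found on either strand in all 38 windows of the 35 collagen genes present in that table, and in 96.0% of the 32851 windows of all genes. The longer site CCGGAAGT was in 0 of the 38 collagen windows and in 3.89% of all windows. GGAA or its reverse complement occurred 1 time in the printed Col18a1 window, 8 times in the window of that gene's other start (chr10:77113656-77113955, not printed) and 5 times in the Col3a1 window, against a median of 3 over all windows. A match to these letters is a description of the sequence, not of binding. The Col4a1 window held 37 CG dinucleotides and the Col3a1 window 0, against a median of 7 over all windows.

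Fli1 itself was measured first, as a check of the labels. It stood at 76.8, 111 and 77.4 CPM (read counts brought to a common library size) in knockout-labelled libraries 1, 2 and 3 and at 45.3, 59.6 and 45.8 CPM in the corresponding wild-type-labelled ones. Every knockout-labelled library exceeded every wild-type-labelled one. The log2 fold change was 0.81 ± 0.184 (SE, edgeR adjusted p = 0.878) between the groups and 0.81 ± 0.0512 (SE, adjusted p = 1.25e-15) with the replicate number in the model. Fli1 thus went against the labels, and directions below are those of the labels alone. A count per gene includes exons outside the deleted part, which the labels do not name, and so does not show whether deletion took place.

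Library totals ran from 17550185 to 21385951 counts. Endothelial markers were abundant in all 6 libraries: the 12 genes, led by Cdh5, Pecam1 and Eng, summed to 16183 to 17978 CPM in the knockout-labelled and 15692 to 16814 CPM in the wild-type-labelled libraries. Of 10 blood cell markers, 5 had 0 reads and only Cd68 was abundant enough to test. The libraries numbered 2 stood apart in many stromal transcripts and in some endothelial ones. Of the 11 fibroblast markers tested (of 14, none a collagen), 10 were highest in the number 2 libraries, and of the 10 mural cell markers tested (of 12) 8 were. Over all genes tested this share was 35.7%. Tagln, the most abundant mural marker, was lowest in number 2, at a mean of 998 CPM against 1076 and 1334 CPM in numbers 1 and 3. Of the 12 endothelial markers 7 were lowest in number 2, as were 35.7% of all genes. Another 2, Vwf and Tek, were highest there, and Vwf averaged 320, 833 and 220 CPM in numbers 1, 2 and 3. In the edgeR test of the number described below, 8 of the 12 differed, against 34.1% of all genes tested. The fibroblast list summed to 706 to 959.8 CPM under the knockout label and 607 to 916 CPM under the wild-type label, but Fstl1, Thy1 and Prrx1 made up 94.4% of this sum; the other 11 genes together gave 26.8, 72.9 and 31.2 CPM in knockout-labelled libraries 1, 2 and 3 and 25.5, 78.0 and 25.9 CPM in wild-type-labelled ones. Lum, Dpt and Postn were too low to test. The mural list summed to 1446 to 1895 CPM and 1427 to 2256 CPM, 95.5% of it Tagln, Acta2 and Pdgfrb, and its other 9 genes gave 29.8, 134 and 32.6 CPM against 43.2, 202 and 30.7 CPM.

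In the paired test described below, 2 endothelial markers were higher (Tek, Emcn), 0 lower and 10 did not pass, where 4.81% of all genes tested were higher and 4.01% lower. Of the stromal markers, 3 fibroblast markers were higher (Dcn, Fstl1, Sfrp1), 4 were lower (Fap, Prrx1, Mfap5, Loxl1) and 4 did not pass, and 3 mural markers (Pdgfrb, Cspg4, Notch3) were lower, 0 higher and 7 did not pass. Dcn was higher in pair 2 alone, with log2 pair differences of -0.0045, 0.64 and -0.40. Pdgfrb and Cspg4 went the other way in pair 3, by 0.15 and 0.064. The other stromal calls had the same sign in all 3 pairs. Prrx1, however, differed mainly in pair 2 (-0.08, -0.75 and -0.0087), and Mfap5 was at -0.07 in pair 3. These stromal levels, and those of Vwf and Tek, stand beside every result on collagens that are high in the number 2 libraries. Their part in those results was not tested. In bulk RNA, fewer cells of a type and less RNA per cell cannot be told apart.

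Collagens accounted for 1.81% to 2.13% of all reads, and Col4a1 and Col4a2 for 1.42% to 1.51%. Of the 44 genes, 32 had enough reads to be tested: 7 basement membrane, 10 fibrillar and 15 other collagens. The remaining 12 were Col4a4, Col24a1, Col6a4, Col6a5, Col6a6, Col8a2, Col9a1, Col17a1, Col19a1, Col22a1, Col25a1 and Col26a1. Among these, Col4a4 had the most reads, 23 under the knockout label and 18 under the wild-type label, and Col6a6 had 0 reads in 118609114, which allows a level of up to 0.0253 CPM by counting error alone.

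Per kilobase of exon, the basement membrane collagens led. Col4a1 averaged 1123 CPM per kb over the 6 libraries, Col4a2 945, Col18a1 327 and Col15a1 177. The next genes were fibrillar: Col5a2 at 53.995, Col1a1 at 47.1 and Col5a1 at 14.1 CPM per kb. The highest of the others was Col6a1, at 13.6 CPM per kb. The ranges over libraries were 1064 to 1172 for Col4a1 and 892 to 999.8 for Col4a2, so these 2 did not overlap with each other or with Col18a1 (264 to 389.6 CPM per kb). Col15a1, at 96.9 to 300.5, overlapped with Col18a1, and Col5a2, at 42.5 to 69.7, lay inside the range of Col1a1, which ran from 10.8 to 111.

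**Figure D1:**
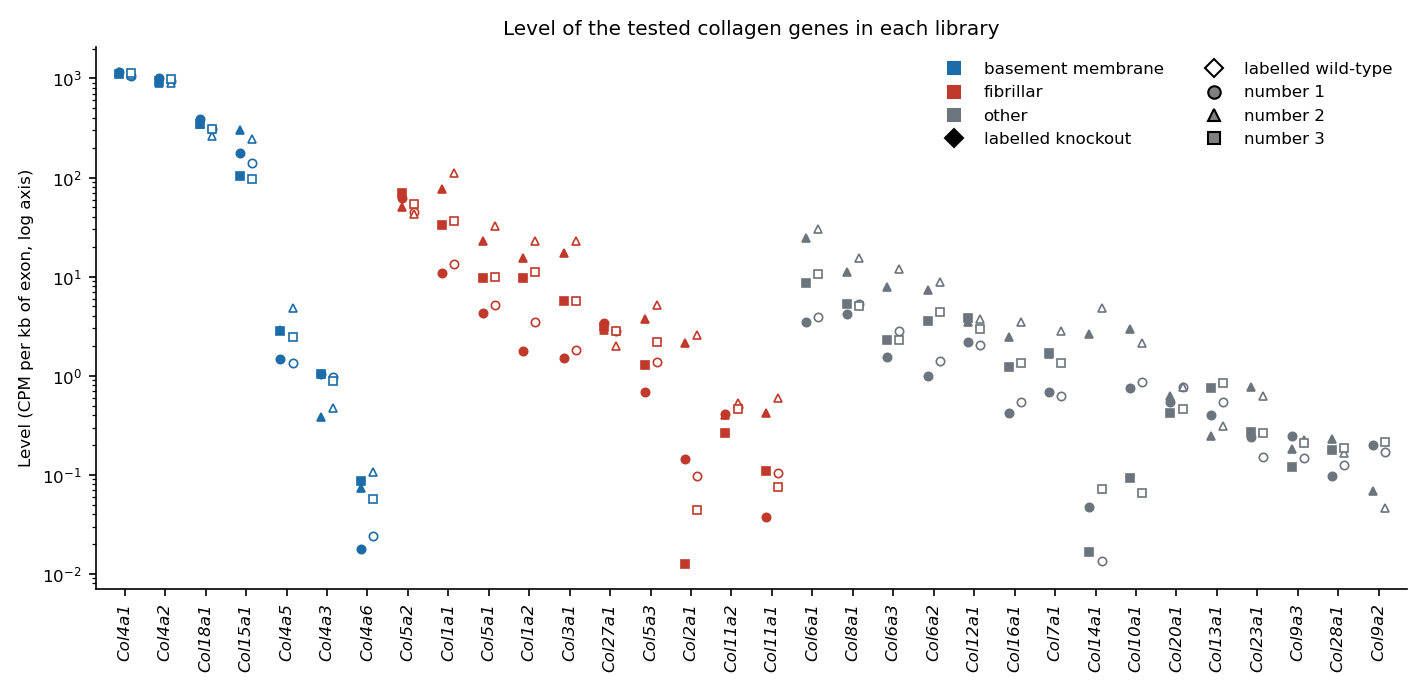
Level of each of the 32 tested collagens (CPM per kb of exon, log axis) in the 6 libraries; filled points are labelled knockout, open points labelled wild-type, the point's shape gives the replicate number and colour the class, and 1 value of 0 (Col9a2, knockout-labelled library 3) is not drawn. Col4a1, Col4a2, Col18a1 and Col15a1 stand above the rest, and the triangles of number 2 top most fibrillar and other collagens.

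Col4a1 and Col4a2 encode the chains of the common type IV collagen, and they were the most even members. Col4a1 (ENSMUSG00000031502, GRCm38 chromosome 8, 11198423 to 11312826, minus strand) stood at 8744, 8662 and 8297 CPM in knockout-labelled libraries 1, 2 and 3 and at 7941, 8177 and 8483 CPM in the wild-type-labelled ones. Col4a2 (ENSMUSG00000031503, chromosome 8, 11312805 to 11449287, plus strand) stood at 6618, 6005 and 6264 CPM against 6177, 5902 and 6567 CPM. The groups overlapped for both genes. Their ratio per kb of exon stayed between 1.14 and 1.28 in the 6 libraries, and the gene models overlap by 22 bases at their starts. The log2 fold change was 0.06 ± 0.072 (SE) for Col4a1 and 0.02 ± 0.079 for Col4a2, with an adjusted p of 0.996 for each in the edgeR comparison of the groups.

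Col4a3, Col4a4, Col4a5 and Col4a6 encode the chains of less widespread type IV networks, such as that of the kidney filter, and were low. Col4a5 averaged 2.63 CPM per kb, Col4a3 0.801 and Col4a6 0.0613. None of the 3 tested genes passed between the groups or in the paired test described below, although Col4a5 was called lower in the paired test without pair 3. Col4a3 was lowest in the number 2 libraries, at 3.85 and 4.66 CPM against 8.77 to 10.4 CPM in the other 4. Its exons share 563 bases with C430014B12Rik on the opposite strand, and where counting ignored strand the reads cannot be told apart.

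Between replicate numbers the collagens differed more often than genes did in general. In an edgeR test of the number, with the label in the model, 24 of 32 tested collagens (75.0%) differed at a false discovery rate of 0.05, against 34.1% of all 12753 genes tested. These were 4 of 7 basement membrane, 9 of 10 fibrillar and 11 of 15 other collagens. Number 2 had the highest mean for 25 of 32 collagens and for 35.7% of all genes. The median range between the highest and the lowest number was 1.72 on the log2 scale for the collagens and 0.21 over all genes. The median size of the difference within a same-numbered pair was 0.33 for the 31 collagens with reads in every library and 0.12 over all genes. The range between numbers exceeded the mean pair difference in 27 of those 31 collagens, and in 74.4% of all genes with such values.

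The fibrillar class total shows this: it was 791, 1639 and 1199 CPM in knockout-labelled libraries 1, 2 and 3 and 677, 2016 and 1095 CPM in the wild-type-labelled ones. The other collagens summed to 129, 477 and 229.7 CPM against 157, 629 and 229.7 CPM. The basement membrane total was level by comparison, at 19237, 19028 and 17671 CPM against 17188, 17528 and 17862 CPM. In the first and second classes the number 2 libraries were highest under both labels, and in the third no number was.

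**Figure D2:**
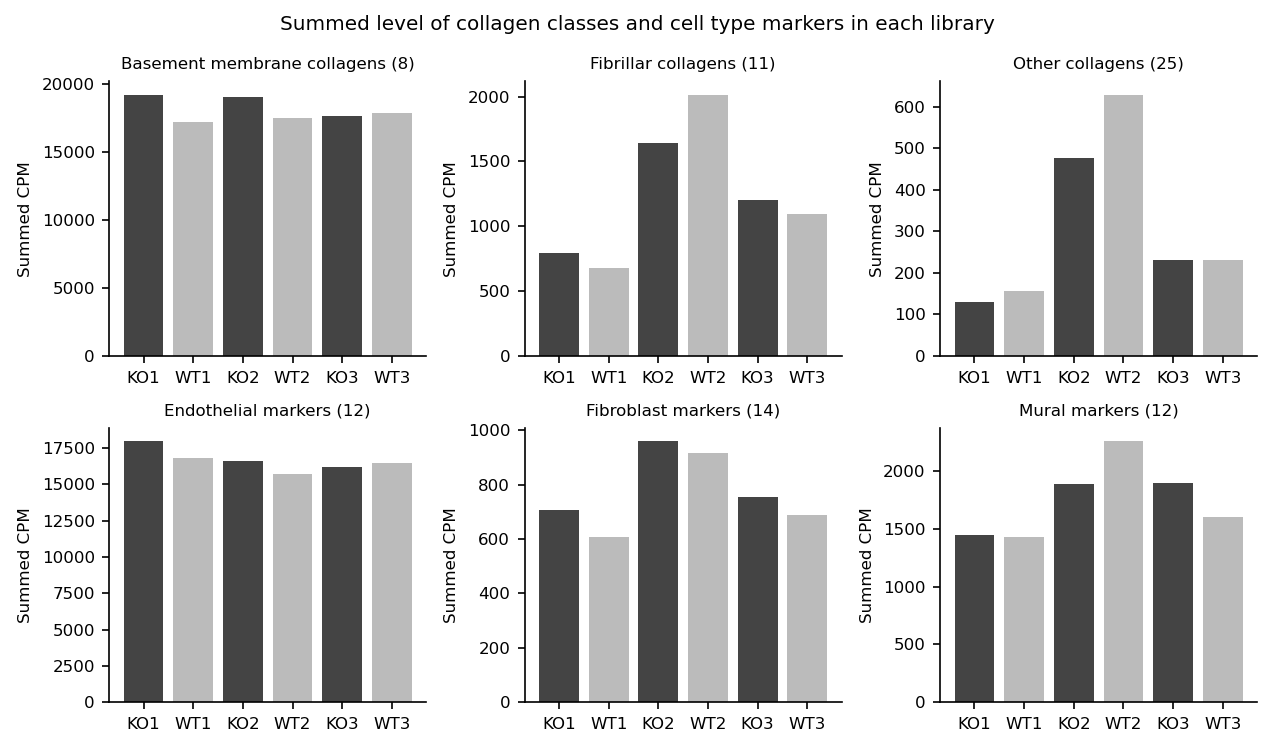
Summed CPM of the 3 collagen classes (top) and of endothelial, fibroblast and mural marker lists (bottom, no collagen among them) in each library, with dark bars labelled knockout and light bars labelled wild-type; every axis starts at 0. Fibrillar and other collagens peak in KO2 and WT2, at 1639 and 2016 CPM and at 477 and 629 CPM, while basement membrane collagens lie between 17188 and 19237 CPM.

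The widest ranges between numbers among the tested members were those of Col14a1, Col2a1 and Col10a1. Col2a1, the main collagen of cartilage, had 28, 369 and 2 reads in knockout-labelled libraries 1, 2 and 3 and 19, 499 and 8 reads in the wild-type-labelled ones (adjusted p = 4.58e-26, edgeR). Col14a1, a fibril-associated collagen, had 7, 348 and 2 reads against 2, 709 and 10 reads (adjusted p = 6.4e-25). Col10a1, which marks hypertrophic cartilage, had 49, 174 and 5 reads against 57, 142 and 4 reads (adjusted p = 2.08e-16). Nearly all reads of Col2a1 and Col14a1 thus came from the number 2 libraries. Col6a1 had the smallest p of any collagen in this test, 8.54e-31 after adjustment, and its mean in number 2 was 7.32-fold that in number 1.

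A smaller set ran the other way. Number 2 was lowest for 7 of the 32 tested members, against 35.7% of all genes, and 5 of the 7 differed by number. They included Col18a1, Col5a2, Col27a1 and Col4a3, for which the highest number exceeded the lowest by 1.14-fold, 1.34-fold, 1.28-fold and 2.38-fold. Col13a1, a membrane-spanning collagen of cell-matrix contacts, was the remaining one, at 1.12 and 1.43 CPM in number 2 and 1.86 to 3.93 CPM elsewhere. Col15a1 differed from the other abundant basement membrane collagens in being 2.72-fold higher in number 2 than in number 3.

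The comparison of the labels asked which collagens differ between endothelial cells labelled knockout and wild-type. Without regard to number, edgeR called 0 of 32 collagens in either direction, against 0.00784% of all genes tested (1 of 12753). An unadjusted p under 0.05 was reached by 2 collagens, Col18a1 (0.0149) and Col5a2 (0.0418), and by 611 genes in all. DESeq2 also called 0 collagens. With the replicate number added to the model as a block, called the paired test here, 4 collagens were higher, 7 were lower and 21 did not pass. The paired test called 4.81% of all genes higher and 4.01% lower, 8.81% in sum, and 34.4% of the collagens. Its median log2 fold change was -0.22 over the 32 collagens and -0.0033 over all genes. By class the medians were 0.06 for basement membrane, -0.31 for fibrillar and -0.28 for other collagens. All verbs of change below refer to the paired test, which rests on 2 residual degrees of freedom and a spread pooled across genes. On simulated data the share of false calls in fits with this block was above the set rate of 0.05, so its calls are less certain than their adjusted p values state.

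**Figure D3:**
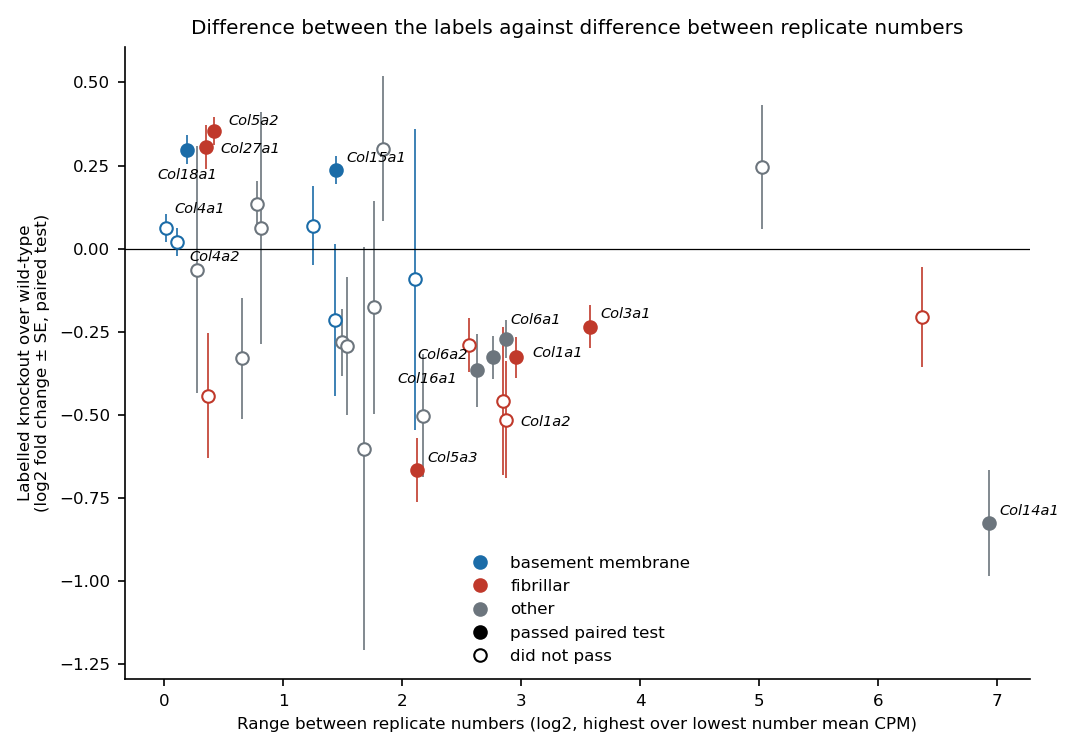
Paired log2 fold change of each tested collagen, labelled knockout over wild-type (± SE, vertical axis), against its log2 range between replicate numbers (horizontal axis); filled points passed the paired test. The 4 genes that rose include 3 with a range under 0.5 (Col18a1, Col5a2, Col27a1), and the 7 that fell have ranges from 2.12 (Col5a3) to 6.93 (Col14a1).

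Basement membrane collagens, 7 of them tested, supplied 2 of the 4 rises and none of the falls. Of all genes tested, 4.81% rose and 4.01% fell. Col18a1, whose C-terminal fragment is the angiogenesis inhibitor endostatin (ENSMUSG00000001435, chromosome 10, 77052178 to 77166548, minus strand), stood at 2735, 2429.96 and 2422 CPM in knockout-labelled libraries 1, 2 and 3 and at 2152, 1854 and 2170.3 CPM in the wild-type-labelled ones. Every knockout-labelled library exceeded every wild-type-labelled one. Means were 2529 ± 179 and 2059 ± 178 CPM (SD, n = 3), and the paired log2 fold change was 0.30 ± 0.043 (SE, edgeR adjusted p = 2.59e-06).

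Col15a1, the close relative of Col18a1 (ENSMUSG00000028339, chromosome 4, 47208161 to 47313167, plus strand), stood at 1119, 1908 and 657 CPM against 898, 1558 and 615 CPM. The knockout-labelled library was the higher in each pair, but the groups overlapped because the numbers differed more than the labels. Its pair differences were 0.32, 0.29 and 0.10 on the log2 scale, and the paired value was 0.24 ± 0.043 (SE, edgeR adjusted p = 0.000117). The 8 basement membrane genes summed to 18645 ± 851 CPM under the knockout label and 17526 ± 337 CPM under the wild-type label (SD, n = 3), with log2 pair differences of 0.16, 0.12 and -0.02, so pair 3 went the other way.

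The fibrillar collagens split. Col5a2, a chain of type V collagen, which controls the width of collagen fibrils (ENSMUSG00000026042, chromosome 1, 45374321 to 45503282, minus strand), stood at 593, 483 and 669 CPM against 432, 408 and 522 CPM. It was higher under the knockout label in each pair, and the groups overlapped. Means were 582 ± 93.1 and 454 ± 60.1 CPM (SD, n = 3), and the paired log2 fold change was 0.35 ± 0.042 (SE, edgeR adjusted p = 3.62e-08). Col27a1, a fibrillar collagen of cartilage (ENSMUSG00000045672, chromosome 4, 63214004 to 63334991, plus strand), stood at 44.8, 37.7 and 40.0 CPM against 36.8, 26.2 and 36.7 CPM, with no overlap of the groups. It rose by 0.31 ± 0.066 (SE, edgeR adjusted p = 0.0012) in the paired test. Without pair 2 its value was 0.21 and its edgeR adjusted p 0.162, so that call rested on pair 2.

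Col1a1, a chain of type I collagen, the most abundant fibril of skin and bone (ENSMUSG00000001506, chromosome 11, 94936224 to 94953042, plus strand), differed 7.76-fold between the highest and the lowest number. Its pair differences were -0.32, -0.52 and -0.12 on the log2 scale, all toward the wild-type label, and it fell by 0.33 ± 0.061 (SE, edgeR adjusted p = 0.00281). Its partner chain Col1a2 (ENSMUSG00000029661) stood at 21.9, 193 and 119 CPM against 43.0, 281 and 138 CPM. Col1a2 was lower in each pair too, by differences as unlike as -0.97, -0.54 and -0.21, and its paired value of -0.51 ± 0.18 (SE) had an edgeR adjusted p of 0.306. Col3a1, the partner of type I in pliable tissues such as vessel walls (ENSMUSG00000026043, chromosome 1, 45311538 to 45349706, plus strand), stood at 14.8, 168 and 56.3 CPM against 17.9, 222 and 55.4 CPM. It fell by 0.24 ± 0.064 (SE, edgeR adjusted p = 0.0211), with no decrease in pair 3. Its value was -0.09 without pair 2 (edgeR adjusted p = 0.76).

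Col5a3, another chain of type V collagen (ENSMUSG00000004098, chromosome 9, 20770050 to 20815067, minus strand), had the lowest fold change of any fibrillar member that passed. It stood at 4.66, 25.7 and 8.69 CPM against 9.31, 35.2 and 15.0 CPM. It was lower under the knockout label in each pair, by 1.00, 0.46 and 0.79 on the log2 scale, although the groups overlapped. It fell by 0.67 ± 0.096 (SE, edgeR adjusted p = 2.28e-06), and by 0.88 without pair 2. Col5a1, the chain that joins Col5a2 in common type V collagen, stood at 36.4, 195 and 82.5 CPM against 43.4, 278 and 84.5 CPM, a paired value of -0.29 ± 0.081 (SE) with an edgeR adjusted p of 0.0638. The type V chains thus differed in level as well as in change: per kb of exon, Col5a2 exceeded Col5a1 by 14.4-fold, 2.19-fold and 7.17-fold in knockout-labelled libraries 1, 2 and 3 and by 8.81-fold, 1.30-fold and 5.47-fold in the wild-type-labelled ones.

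Col5a2 and Col3a1 lie tail to tail on chromosome 1 with 24614 bases between them. Col5a2 rose where Col3a1 fell, and the ratio of their levels per kb ran from 1.88 in wild-type-labelled library 2 to 40.8 in knockout-labelled library 1. Col11a2, a minor fibrillar chain, was lower in every knockout-labelled library, at 2.81, 2.78 and 1.80 CPM against 3.29, 3.61 and 3.16 CPM, but did not pass (paired log2 fold change -0.44 ± 0.19, SE, edgeR adjusted p = 0.157). The groups failed to overlap for 2 collagens on the high side (Col18a1, Col27a1) and 1 on the low side (Col11a2), against 5.25% and 4.96% of all genes. Values below in all 3 pairs were found for 11 of 32 collagens, against 20.1% of all genes, and values above in all 3 for 5, against 20.5%.

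**Figure D4:**
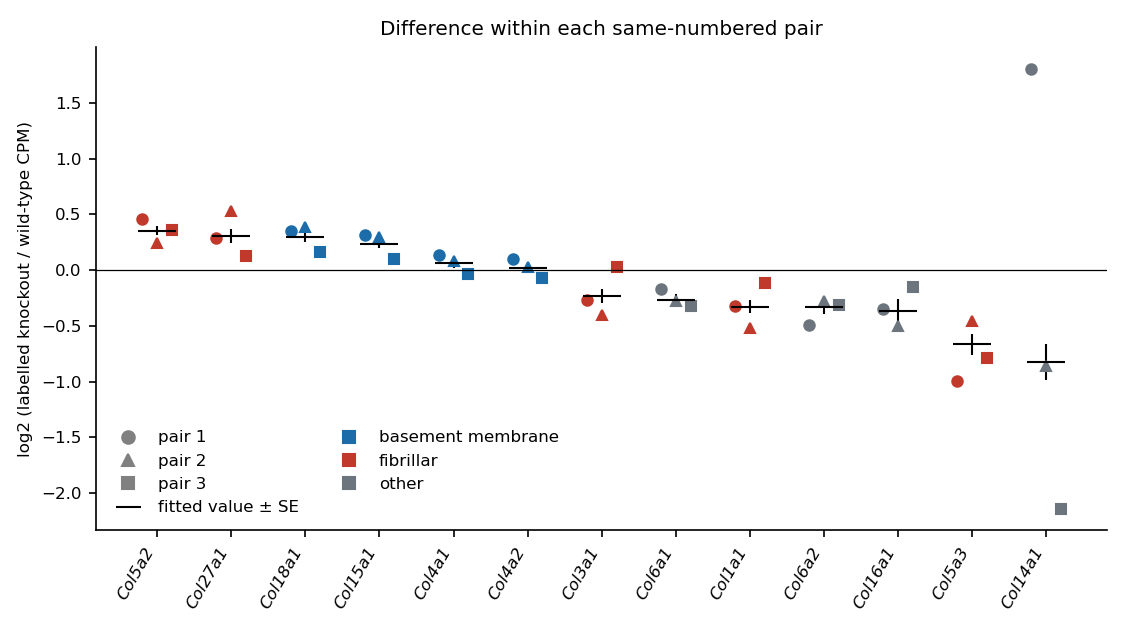
Log2 ratio of labelled knockout to wild-type CPM within each same-numbered pair (points), with the fitted paired value ± SE (black), for the 11 collagens that passed the paired test and for Col4a1 and Col4a2. The 3 points of Col18a1, Col15a1, Col5a2 and Col27a1 lie above 0, those of Col1a1, Col5a3, Col6a1, Col6a2 and Col16a1 below 0, and those of Col14a1 spread from -2.14 to 1.80.

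Among the other collagens, 4 of the 15 tested (26.7%) fell and 0 rose, where 4.01% of all genes tested fell and 4.81% rose. Col6a1 and Col6a2, chains of the beaded filaments that surround many cells, fell together. Col6a1 (ENSMUSG00000001119, chromosome 10, 76708792 to 76726168, minus strand) stood at 15.4, 108 and 37.4 CPM against 17.3, 131 and 46.8 CPM and fell by 0.27 ± 0.056 (SE, edgeR adjusted p = 0.000674). Col6a2 (ENSMUSG00000020241, chromosome 10, 76595762 to 76623630, minus strand) stood at 8.23, 60.8 and 29.8 CPM against 11.6, 73.8 and 37.0 CPM and fell by 0.33 ± 0.065 (SE, edgeR adjusted p = 0.000448). Both were lower in 3 of 3 pairs. Without pair 2, Col6a2 still passed at -0.38 and Col6a1 did not, at -0.26 (edgeR adjusted p = 0.0852). Col6a3, the large chain of the same filament, was at 18.7, 94.9 and 27.2 CPM against 33.7, 141 and 27.4 CPM and did not pass (-0.50 ± 0.19, SE, edgeR adjusted p = 0.304), but did when any 1 pair was left out.

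Col16a1, a minor fibril-associated collagen (ENSMUSG00000040690, chromosome 4, 130047840 to 130099283, plus strand), stood at 2.86, 16.6 and 8.23 CPM against 3.63, 23.5 and 9.13 CPM and fell by 0.37 ± 0.11 (SE, edgeR adjusted p = 0.0263). That call was lost without pair 2, at -0.22 (edgeR adjusted p = 0.657). Col14a1 (ENSMUSG00000022371, chromosome 15, 55307750 to 55520803, plus strand) fell by 0.83 ± 0.16 (SE, edgeR adjusted p = 0.00039), and pair 2, with 348 reads against 709, supplied nearly all of its reads. Its other libraries held 10 reads or fewer, and without pair 2 it was too low to test.

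Several abundant or variable members did not pass. Col12a1, a fibril-associated collagen of tendon and muscle, was at 33.4, 53.6 and 58.3 CPM against 30.9, 56.9 and 44.6 CPM, with a paired log2 fold change of 0.13 ± 0.068 (SE, edgeR adjusted p = 0.271). Col8a1, a network-forming collagen of vessel walls and the cornea, was at 32.6, 86.5 and 41.9 CPM against 41.4, 122 and 39.5 CPM (-0.28 ± 0.10, SE, edgeR adjusted p = 0.167). Col8a1 was called lower in 3 of the 6 paired alternatives: without the filter on low counts (edgeR adjusted p = 1.72e-05), without pair 1 (0.0466) and without pair 3 (-0.43, edgeR adjusted p = 1.47e-09). Col7a1, which anchors the skin's basement membrane, was at 7.04, 16.8 and 17.5 CPM against 6.40, 28.8 and 13.7 CPM. The sign of its difference was not shared by the 3 pairs. Its paired value was -0.18 (edgeR adjusted p = 0.842), and it was called lower only without pair 3 (-0.47, edgeR adjusted p = 0.00136). Col13a1, Col20a1 and Col23a1 were below 5 CPM in every library, with paired values of -0.29, -0.33 and 0.30, and edgeR adjusted p values of 0.467, 0.309 and 0.48.

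Of the 11 calls, 5 stood in each of the 6 paired alternatives run: Col18a1, Col15a1, Col5a2, Col5a3 and Col6a2. All 6 reused the same libraries, so a call kept in them is not independent support. Fits on fewer pairs could also give a smaller p: for Col18a1 the edgeR adjusted p was 1.71e-11 without pair 3 and 2.59e-06 with all pairs. DESeq2 with the same block called 3 higher and 3 lower, leaving out Col1a1, Col3a1, Col27a1, Col16a1 and Col14a1. Over all genes it called 262 higher and 111 lower, against 613 and 511 in the paired test. Without pair 2 the counts were 4 and 5 for collagens and 339 and 205 for all genes. The collagens called then included Col12a1 as higher and Col1a2 and Col6a3 as lower, and not Col3a1, Col27a1, Col6a1, Col16a1 or Col14a1. Without pair 3 all 11 calls were kept and 7 more collagens were called lower: Col4a5, Col1a2, Col5a1, Col11a1, Col7a1, Col6a3 and Col8a1. Without pair 1 the 11 were kept too, and Col1a2, Col6a3 and Col8a1 were added as lower. Over all genes the fit without pair 3 called 560 higher and 600 lower, and that without pair 1 called 603 and 527.

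The enzymes and chaperones that build the chains inside the cell were written as a list of 19 genes, of which 17 were tested. In the paired test 3 of them rose, 0 fell and 14 remained uncalled; the median over the list was 0.07 on the log2 scale, against -0.0033 over all genes, of which 4.81% rose and 4.01% fell. Serpinh1, the collagen-specific chaperone HSP47, stood at 873, 855 and 937 CPM against 741, 767 and 849 CPM and rose by 0.18 ± 0.040 (SE, edgeR adjusted p = 0.00194). Colgalt1, which attaches galactose to hydroxylysine, rose by 0.19 and P4ha2, a prolyl hydroxylase subunit, by 0.19. For Serpinh1 the groups did not overlap, as for 5.25% of all genes in that direction. Without pair 2 none of the list's genes passed, with values of 0.19, 0.19 and 0.21 and edgeR adjusted p values of 0.0708, 0.0606 and 0.0539 for Serpinh1, Colgalt1 and P4ha2. DESeq2 with the same block kept the calls of Serpinh1 and Colgalt1 but not that of P4ha2 (DESeq2 adjusted p = 0.165).

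A second list held 20 genes of export from the endoplasmic reticulum, propeptide cleavage and cross-linking, 19 of them tested. In the paired test 2 rose, 4 fell and 13 remained uncalled, and the median was 0.0083, beside the same 4.81% and 4.01% of all genes. Sec24d and Mia3, which load procollagen into transport carriers, rose by 0.20 and 0.14. Lox, the lysyl oxidase that cross-links fibrils outside the cell, stood at 15.4, 111 and 27.3 CPM against 29.2, 158 and 37.1 CPM and fell by 0.59 ± 0.066 (SE, edgeR adjusted p = 3.61e-07). Loxl1, Pcolce and Adamts2, of the same list, fell by 0.38, 0.30 and 0.41. Of the 19 tested, 13 were highest in the number 2 libraries, Lox among them, against 35.7% of all genes. Without pair 2 only Sec24d (0.25) and Lox (-0.67) passed. DESeq2 with the same block also kept the calls of Sec24d and Lox. It did not keep those of Mia3, Loxl1, Pcolce and Adamts2 (DESeq2 adjusted p = 0.143, 0.576, 0.392 and 0.153).

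Collagen receptors numbered 11, of which 9 were tested: 1 rose, 3 fell and 5 remained uncalled, and the median was -0.05, again beside 4.81% and 4.01% of all genes. Itga2, the receptor subunit that pairs with Itgb1 to bind collagen, was at 27.3, 32.7 and 23.6 CPM against 18.6, 18.4 and 14.4 CPM and rose by 0.70 ± 0.077 (SE, edgeR adjusted p = 5.5e-09). The groups did not overlap, as for 5.25% of all genes in that direction. Mrc2, an endocytic receptor that clears collagen, was at 7.80, 71.9 and 34.4 CPM against 11.6, 109 and 40.7 CPM and fell by 0.48 ± 0.066 (SE, edgeR adjusted p = 1.65e-06). Itga11, a fibroblast receptor for fibrillar collagen, fell by 0.76 and Ddr1, a collagen-activated kinase, by 0.38. Itga2, Mrc2, Itga11 and Ddr1 all had their highest mean in number 2, and so did 6 of the 9 tested in all, against 35.7% of all genes. Without pair 2 the counts were 2 higher and 1 lower (Mrc2), where 339 and 205 of all 12723 genes tested passed. Itga11 and Ddr1 then had edgeR adjusted p values of 0.123 and 0.94. DESeq2 with the same block kept the calls of Itga2 and Mrc2 but not those of Itga11 and Ddr1 (DESeq2 adjusted p = 0.156 and 0.79). Between the groups without the block, 0 genes of these 3 lists passed.

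The classes also differ in how their genes are built, which the expression values did not enter. A Gly-X-Y triplet takes 9 bases of coding sequence, and in fibrillar collagens the helix is classically encoded in exons of 54 bases. In GENCODE M21, in the transcript with the longest coding sequence, 305 of 649 coding exons of the 11 fibrillar genes (47.0%) had exactly this length, and 82.4% had a length that is a multiple of 9. In the 8 basement membrane genes these shares were 4.24% and 43.8% of 377 exons, and in the 25 others 15.1% and 55.1% of 978. Fibrillar genes that rose and that fell overlapped in this respect: the share of 54-base exons was 44.4% in Col5a2, 54.1% in Col27a1, 41.2% in Col1a1, 47.1% in Col3a1 and 46.3% in Col5a3.

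**Figure D5:**
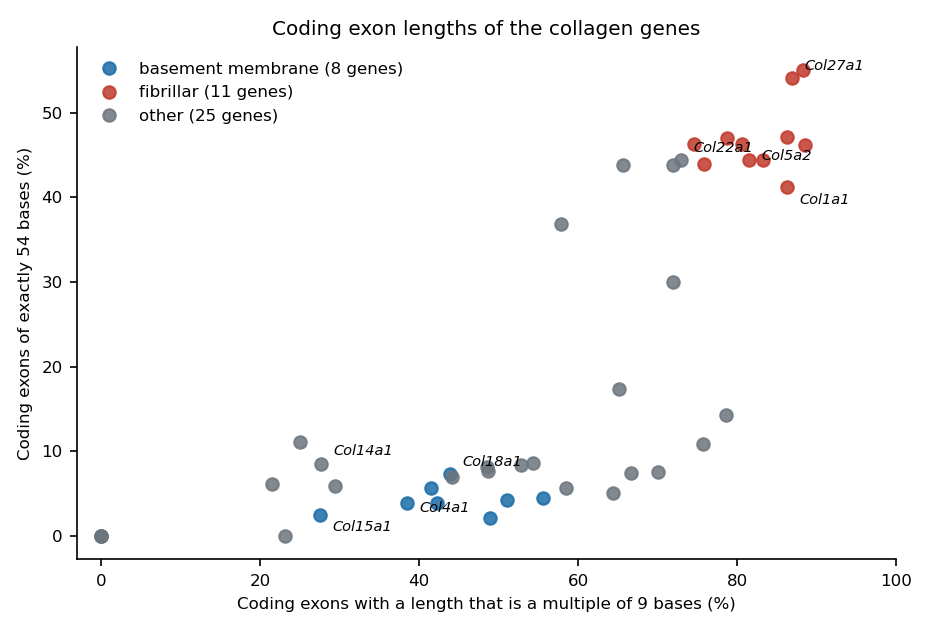
Share of coding exons of exactly 54 bases (vertical axis) against the share with a length that is a multiple of 9 bases (horizontal axis), 1 point per collagen gene. The 11 fibrillar genes lie between 41.2% and 55.0% on the vertical axis, and the 8 basement membrane genes between 2.13% and 7.32%.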

How the data were processed

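The values the authors deposited were raw counts of reads for 24421 gene symbols in 6 libraries, with no normalization. Programs named in the submitters' processing notes were STAR 2.6.1d, Subread 1.6.4 with featureCounts, Trim Galore 0.6.4 and FastQC 0.11.8, and the builds named were mm10 and GRCm38. The annotation, strand setting and handling of multiply mapped reads: not given in the sources used here. Per the labels' protocols, libraries were made with a non-stranded or a stranded TruSeq kit, without saying which. Symbols were matched to GENCODE M21 (23336, 95.6%), which gave positions and exon-union lengths; the authors' gene models may differ.

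Tests on these counts used edgeR 4.0.16 under R 4.3.3 (filterByExpr, TMM, robust quasi-likelihood F test, Benjamini-Hochberg over all 12753 genes tested, false discovery rate 0.05) and DESeq2 1.42.0 as the alternative. The edgeR fits, but not DESeq2, were tested on simulated data, in which the share of false calls in the blocked fits was above the set rate. SEs are the fold change divided by the square root of F. The exact permutation test of 3 against 3 cannot go below 0.1, and that of 3 pairs cannot go below 0.25. Single genes were therefore tested only in fits over all genes, and smaller p values rest on the pooled spread. No libraries agreed within sampling noise.

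Numbers 1 to 3 were taken to pair the libraries: deviations from group means correlated at 0.776, 0.857 and 0.652 within numbers and at -0.681 to 0.0685 across numbers. This comes from the data; the labels do not state a pairing. The biological coefficient of variation was 0.189 without the block and 0.0383 with it.

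Named genes were Fli1, collagens called in either fit, in each collagen class the highest per kb and the smallest p for label and for number, up to 4 called genes per direction of the other lists, and the 3 most abundant markers per list; others were named after their values were seen. The collagens and lists were chosen with earlier results of these data known.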

Additional observations from a re-analysis of the deposited data

How the results depend on the processing

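Without the block, no alternative other than the replicate block itself called a collagen: the block called 4 higher and 7 lower. Over all genes the block called 613 higher and 511 lower and DESeq2 12 and 7, and leaving out 1 library gave 0 higher and 0 to 1 lower. In the paired test, DESeq2 called 262 and 111 genes and 3 of the 7 lower collagens. Leaving out 1 pair gave 339 to 603 genes higher, 205 to 600 lower, 4 collagens higher in each case and 5 to 14 lower. Collagens that differed between numbers were fewest without pair 2, at 16 of 31 tested, where 13.8% of all genes differed. They were most without the filter on low counts, at 26 of 43 tested, where 25.8% of all genes differed. Among collagens the block changed 11 calls. The cause was not tested.

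Leaving out 1 library without the block turned the direction of 16 of 21 named collagens, of which none passed: Col10a1 (-1.27 to 1.42), Col12a1 (-0.069 to 0.35), Col13a1 (-0.80 to 0.14), Col14a1 (-5.58 to 4.37), Col15a1 (-0.20 to 0.69), Col16a1 (-1.13 to 0.52), Col1a1 (-1.27 to 0.70), Col23a1 (-0.44 to 1.02), Col2a1 (-3.46 to 3.40), Col3a1 (-1.48 to 1.12), Col5a3 (-1.58 to 0.088), Col6a1 (-1.31 to 0.74), Col6a2 (-1.11 to 0.43), Col6a3 (-1.56 to 0.61), Col7a1 (-0.62 to 0.45) and Col8a1 (-0.86 to 0.40). With the block, omitting 1 pair turned Col10a1 (-0.15 to 0.46), Col2a1 (-0.30 to 0.12) and Col7a1 (-0.47 to 0.27). Values by class and by list without pair 2 or with DESeq2 were added after seeing the data. Members under about 1 CPM had too few reads for small differences to be detectable.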
